A study of Saccharomyces cerevisiae with 4 samples.

Results

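GAT1 and 9 other genes of nitrogen source regulation in Saccharomyces cerevisiae were followed through a caspofungin exposure. The 10 genes were given by systematic name, out of 6207 genes in the deposited table. GAT1 entered because its own ratios in this comparison were large, so its values are given as a description, and the other 9 were added by function with these results known. GAT1, GZF3 and DAL81 had a ratio on all 4 arrays, URE2 and MEP2 on some of them, and GLN3, DAL80, MEP1, MEP3 and GAP1 were blank on every array.

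The strain was a mid2 mutant in the BY4741 background, lacking a cell surface sensor of wall stress, and it was the only strain measured, so the treated and the untreated cells both carry the mutation. Cells at 24 °C in YEPD, a rich medium of yeast extract, peptone and glucose, were exposed for 2 h to 15 ng/ml caspofungin, and the untreated cells were the other part of the same culture. Caspofungin inhibits the enzyme that makes beta-1,3-glucan, the main fibre of the yeast wall. RNA of 2 cultures was compared on 4 2-colour arrays, with the caspofungin RNA in Cy3 on arrays 1 and 3 and in Cy5 on arrays 2 and 4. Which arrays belong to the same culture is not stated, so an SD over arrays mixes technical and culture spread.

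All values are log2 ratios as deposited, and a positive ratio is taken to mean higher with caspofungin than without. That direction is likely rather than settled, and it was taken from the titles of the arrays, which name the treated condition. As deposited, 14 of 2925 genes were at least 2-fold positive on every array and 0 negative. With the signs of arrays 1 and 3 turned, these counts would be 0 and 3. HSP12, a stress protein gene, had 4.73, 3.14, 3.63 and 4.08 on arrays 1 to 4, positive in both dye orientations. Over 2925 genes, Pearson's r was 0.65 between arrays 1 and 3 and 0.79 between arrays 2 and 4, while between orientations it ran from -0.15 to 0.14. If the ratios were deposited by dye instead, the signs on arrays 1 and 3 would turn, and what that changes is given beside each of the 10 genes that has a value on those arrays. BY4741 is of the a mating type, and 5 of 6 a-cell marker genes had 4 values, beside 47.1% of all genes. Of the 4 alpha-cell genes 0 had 4 values and 2 had some. Ratios carry no level and a blank is no sign of absence, so the mating type is not read from this.

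Yeast given a good nitrogen source keeps the genes for poorer sources off, a control called nitrogen catabolite repression. The activators Gat1 and Gln3 are GATA zinc finger proteins that switch those genes on, the related factors Dal80 and Gzf3 repress from the same kind of site, and Ure2 holds the activators, Gln3 above all, in the cytoplasm. TORC1, the nutrient-sensing kinase complex, acts upstream, and ammonium permeases of the Mep family and the general amino acid permease Gap1 are among the classical outputs.

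GAT1 (YFL021W), the GATA activator, had log2 ratios of 1.43, 1.30, 3.34 and 1.16 on arrays 1 to 4. All 4 lay above 1, that is above 2-fold, and array 3 stood far over the other arrays, which lay close together. The mean was 1.81 ± 1.03 (SD, n = 4 arrays of 2 cultures), a 3.50-fold difference, with single arrays between 2.23-fold and 10.1-fold. Leaving out array 3 gave 1.30 ± 0.14 (SD, n = 3), so the spread of the 4 values came mostly from that array. By rank the arrays were closer to each other: GAT1 was rank 23 of 3215 genes on array 1, 24 of 4346 on array 2, 14 of 3228 on array 3 and 48 of 3538 on array 4.

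Averaged by culture, GAT1 had 1.37 and 2.25 if arrays 1 and 2 shared a culture and arrays 3 and 4 the other, and 1.30 and 2.32 if arrays 1 and 4 were joined and arrays 2 and 3. Both arrangements left 1 culture higher, the one that held array 3. Array 3 also had the widest spread over all genes, with an SD of 0.64 against 0.41 to 0.50 on the other arrays. With arrays centred and scaled to the same spread, the GAT1 mean was 1.86 and its value on array 3 was 3.00, against 1.38 to 1.57 on the others, so array 3 stayed apart after scaling. Turned by the dye labels the GAT1 mean would be -0.58, with the 4 values split between signs.

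**Figure D1:**
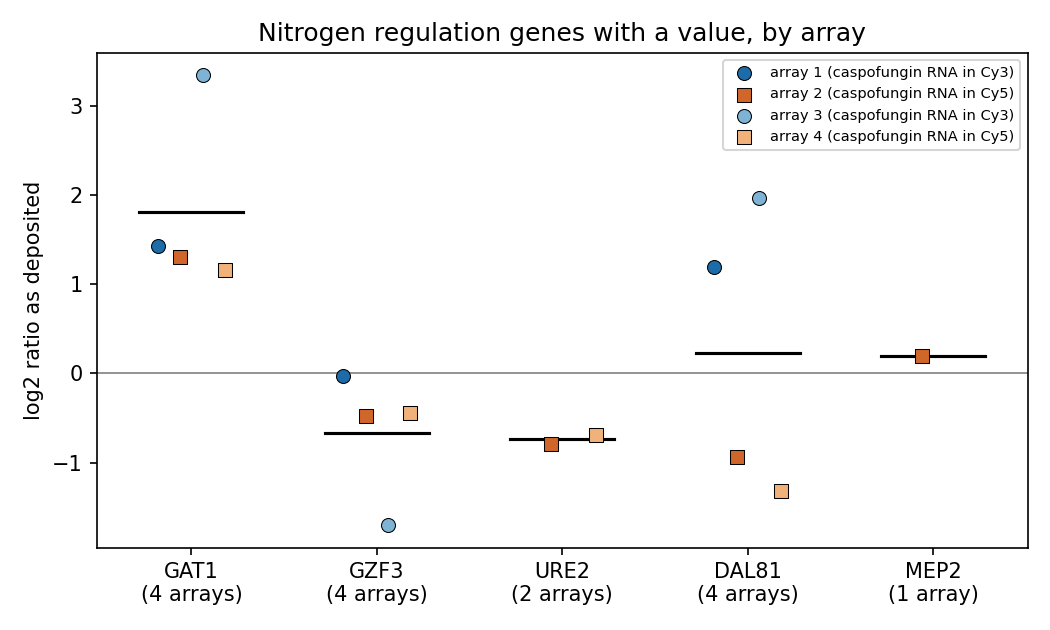
Log2 ratios as deposited (vertical axis) of the 5 genes with a value, by array, with circles for arrays with the caspofungin RNA in Cy3, squares for Cy5 and a bar at the mean. GAT1 lies above 1 on every array with array 3 at 3.34, GZF3 lies below 0 on every array, and DAL81 changes sign with the dyes.

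A change of at least 2-fold with a positive ratio on every array, a count made without a test, was reached by 14 of 2925 genes, 0.479%, and with a negative ratio by 0. Ordered by their smallest ratio, GAT1 was the eighth of these with 1.16. The last gene inside was PRB1, which encodes vacuolar proteinase B, with a smallest ratio of 1.03, and the first outside was TFS1 with 0.98. GAT1 was chosen from these genes, so its place among them is no result.

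GZF3 (YJL110C), the GATA repressor, had log2 ratios of -0.03, -0.48, -1.70 and -0.45 on arrays 1 to 4. All were negative, as for 19.3% of all genes with 4 values, but the value of array 1 was near 0 and above the median of that array, -0.10, so that the sign was no longer shared once arrays were centred on their medians. Array 3 again held the extreme value, on the side opposite to GAT1. The mean was -0.66 ± 0.72 (SD, n = 4), rank 23 from the bottom of 2925 genes, and it was -0.32 ± 0.25 (SD, n = 3) without array 3. GZF3 thus had a mean smaller than its own spread over arrays. Turned by the dye labels the mean would be 0.20.

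DAL81 (YIR023W), a zinc finger co-activator of genes for urea, allantoin and GABA use that also serves amino acid permease genes, had log2 ratios of 1.20 and 1.97 on arrays 1 and 3 and of -0.93 and -1.32 on arrays 2 and 4. The sign thus followed the dyes and not the treatment label, with no overlap between the orientations. The mean was 0.23 ± 1.61 (SD, n = 4). The arrays with the caspofungin RNA in Cy5 less those with it in Cy3 differed by -2.71, the fourth largest such difference in size of 2925 genes, where the median gene had 0.10. The pattern of signs itself, above 0 in the first orientation and below 0 in the second, was common at 13.4% of genes. Turned by the dye labels, DAL81 would be negative on all 4 arrays with a mean of -1.36.

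URE2 (YNL229C), the cytoplasmic regulator, had ratios of -0.79 and -0.69 on arrays 2 and 4 and was blank on arrays 1 and 3. Both values were low within their arrays, rank 81 from the bottom of 4346 genes and rank 204 of 3538. The mean of -0.74 ± 0.07 (SD, n = 2) comes from 1 dye orientation, so a dye part in it cannot be told apart from the treatment, and URE2 entered no test. Turning by the dye labels leaves these 2 values as they are. MEP2 (YNL142W), the high-affinity ammonium permease that also acts as a sensor for filamentous growth, had 1 value, 0.20 on array 2, at percentile 80.1 of the genes measured there.

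GLN3 (YER040W), the activator held by Ure2, had no ratio, nor had DAL80 (YKR034W), the repressor that is itself a classical target of the activators. The permease genes MEP1 (YGR121C), MEP3 (YPR138C) and GAP1 (YKR039W) were blank as well. The rule behind blanks is not given in the sources used here, and a blank is no sign of absence or of an unchanged level. Blank on all arrays were 5 of the 10 genes, beside 1806 of 6207 genes in the table, 29.1%. Whether the classical outputs differed with GAT1 could therefore not be read from GAP1 or DAL80.

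**Figure D2:**
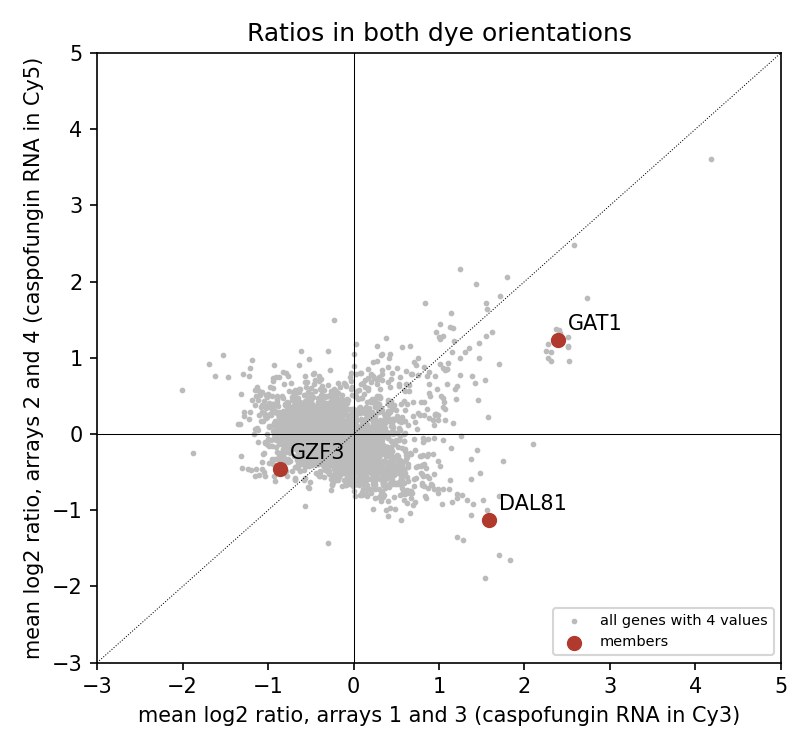
Mean log2 ratio on arrays 1 and 3 (horizontal axis, caspofungin RNA in Cy3) against that on arrays 2 and 4 (vertical axis, Cy5) for all 2925 genes with 4 values in grey and the 3 measured on all arrays in red, with equal values on the dotted line. GAT1 at 2.39 and 1.23 is positive in both orientations, GZF3 at -0.86 and -0.46 negative in both, and DAL81 at 1.58 and -1.13 lies in the quadrant of opposite signs.

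In the fit across all genes with 4 values, 0 of the 3 genes passed (limma on culture means, adjusted p under 0.05), beside 0.0342% of the 2925 genes, which is HSP12, a stress protein gene (3.90 ± 0.67, SD, n = 4, adjusted p = 0.0196). At an unadjusted p under 0.05 there were 741 genes. Because GAT1 was chosen on this comparison, nothing is read from its part in this count.

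The genes with ratios most like those of GAT1 were found by the root mean square difference of the 4 log2 ratios, a description over 4 arrays. Closest was YBL101W-A with a difference of 0.21, followed by YFL-TYA with 0.24, YCL020W with 0.28, YBL005W-A with 0.33 and YMR046C with 0.37, where the median gene was 2.17 away. TYA is the name of the first reading frame of yeast Ty retrotransposons, which encodes their Gag protein, and the other 4 carry a systematic name alone in the gene table used. YBL101W-A had 1.12, 1.07, 3.50 and 1.08 on arrays 1 to 4, and YFL-TYA had 1.26, 0.87, 3.37 and 1.04. Each of the 5 shared with GAT1 a value above 3 on array 3 and smaller positive values on the other arrays.

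In total, 12 genes lay within 0.5 of GAT1, and 11 of the 13 genes with a higher ratio than GAT1 on array 3 were among them. When the likeness was taken over arrays 1, 2 and 4 alone, an alternative chosen after seeing the data, 1 of the same 5 remained among the 5 closest genes, YBL101W-A (0.23). The others there were SED1, a major cell wall protein gene (0.23), CMK2, a calmodulin-dependent kinase gene (0.25), BDH2 (0.26) and NCE103, the carbonic anhydrase gene (0.26). YFL-TYA was then rank 10 and YMR046C rank 17, so the order of likeness rested largely on array 3. Rows of repeated elements can share signal between near-identical copies, so the 5 rows may not be independent of one another. Whether the GAT1 signal on array 3 shares a source with theirs was not tested.

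**Figure D3:**
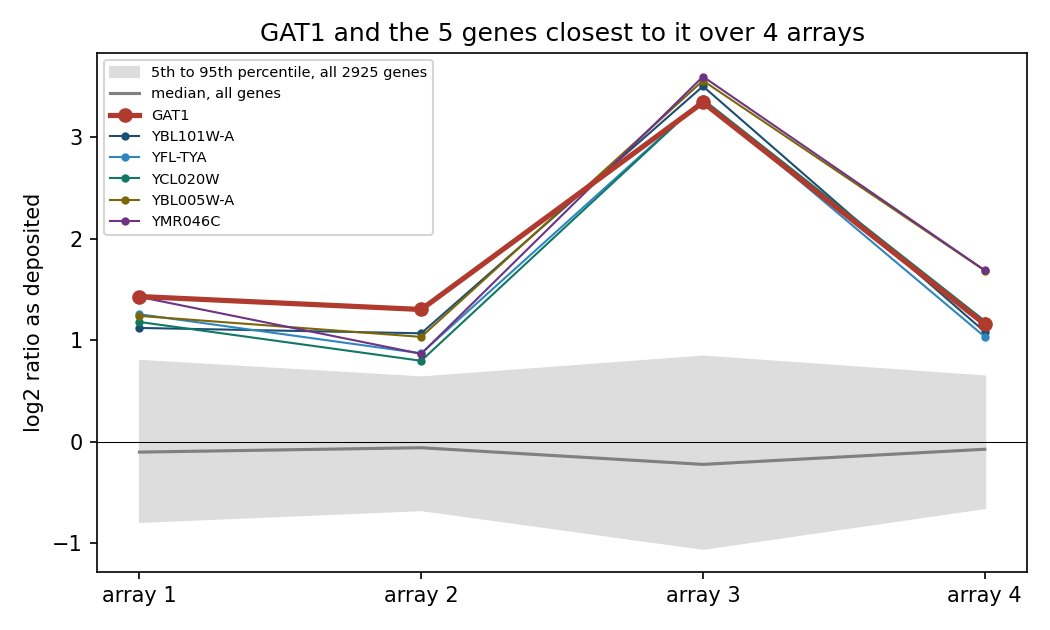
Log2 ratios as deposited (vertical axis) on arrays 1 to 4 (horizontal axis) of GAT1 and the 5 closest genes, with the range from percentile 5 to 95 of all 2925 genes in grey. All 6 lines lie above the grey band on every array and peak on array 3, between 3.34 and 3.60.

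The 1 measured gene directly beside GAT1 on chromosome VI did not share its ratios. This was FRS2, which encodes a subunit of phenylalanyl-tRNA synthetase, with -0.53, 0.27, -0.64 and 0.30 on arrays 1 to 4, while PAU5 on the other side was blank. Beside DAL81 on chromosome IX, SEC11 had -0.38, -0.05, -0.77 and -0.03 and INA22 -0.42, -0.12, -0.59 and 0.01. Neither neighbour carried the large alternating values of DAL81. Beside GZF3 on chromosome X, CCT7, a chaperonin subunit gene, had 0.69, -0.82, 0.06 and -0.61, and UTP10, a ribosome assembly gene, 0.24, -0.23, 0.76 and -0.58, so on array 3, where GZF3 was lowest, both were positive.

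Genes around nitrogen source regulation, not all of them targets of these regulators, were grouped into 9 lists by function, which name 107 genes. Of these 106 were in the table, 85 had at least 1 value and 61 had 4. None of the 61 passed in either direction (0 genes, limma, all genes tested together), in the fit reported and in each of the 11 alternatives. Over all genes 1 of 2925 passed in the fit reported, 0.0342%, and 0 to 148 genes in the alternatives. Beside 0.0342%, the 0 of 61 in the fit reported is no result about these genes. An unadjusted p under 0.05 was found for 9 of the 61, 2 with positive and 7 with negative means. That is 14.8% of the 61, beside 25.3% of all genes, where 200 of the 741 had positive and 541 negative means. Positive on every array were 3 of 61, 4.92%, beside 6.87% of all genes, and negative 10, 16.4%, beside 19.3%. The median of the means was -0.07, beside -0.13 over all genes. Centring each array on its median moved the median of all genes by 0.11. After it, 10 of the 61 were positive on every array, 16.4% beside 11.0% of all genes, and 1 was negative, 1.64% beside 8.72%. Of the 10 genes negative on every array as deposited, GTR2 alone stayed so after centring. The means ran from -0.45 to 0.40. GAT1, at 1.81, lay above that range, but it was chosen for its large ratios, so this is no result.

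Allantoin and urea are poor nitrogen sources whose use depends on the GATA activators, and of the 9 listed genes 1 had 4 values. This was DUR12, the urea amidolyase gene, with 0.19, -0.13, 0.11 and -0.13 on arrays 1 to 4, which differed by dye and averaged 0.01 ± 0.16 (SD, n = 4). DAL7, a malate synthase gene, had -0.55, -0.04 and -0.79 on arrays 1, 2 and 4. The allantoate permease gene DAL5 had -0.52 and -0.08 on arrays 1 and 2. None of the measured genes of this group showed a ratio above 0.19 on any array, and 4 were blank, among them the permease genes DAL4 and DUR3.

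Genes for using amino acids as nitrogen source had a median of -0.03 over 13 with 4 values, none with 1 sign on every array. CAR1, the arginase gene, had the largest mean in size among the positive ones, 0.33 ± 0.46. The GABA permease gene UGA4 had -0.34 ± 0.28 and UGA2, a succinate semialdehyde dehydrogenase gene, -0.27 ± 0.998 (SD, n = 4 each). The sign of the group's median went with the dyes: with the caspofungin RNA in Cy3 it was -0.58 on array 1 and -0.44 on array 3, and with it in Cy5 0.59 on array 2 and 0.33 on array 4. The 4 copies of the asparaginase gene ASP3 are near-identical and contribute to this, so they count as less than 4 separate genes.

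Ammonia assimilation had a median of -0.23 over 5 genes, all measured. GDH1, the NADP-dependent glutamate dehydrogenase gene, was negative on every array with -0.08, -0.27, -0.58 and -0.49 (mean -0.35 ± 0.22), though array 1 was at 0.02 after centring. The glutamine synthetase gene GLN1 had 0.82, -1.16, -0.01 and -0.999, negative on 3 arrays with a mean of -0.34 ± 0.92 that was smaller than its spread. GDH2, which encodes the glutamate-degrading dehydrogenase, had -0.23 ± 0.36 (SD, n = 4).

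Amino acid permeases had a median of -0.07 over 9 genes with 4 values. BAP2, a branched-chain amino acid permease gene, was positive on every array at 0.26, 0.34, 0.09 and 0.34 (mean 0.26 ± 0.12), as was the glutamine permease gene GNP1 at 0.16, 0.05, 0.16 and 0.37 (0.19 ± 0.13). Both kept this sign after centring, were small and did not pass. The methionine permease gene MUP1 had -0.11 ± 0.29 (SD, n = 4). CAN1, the arginine permease gene, had -0.03, -1.35 and 0.03 on arrays 2, 3 and 4, so array 3 alone was low.

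The SPS sensor, which induces several of these permeases when amino acids are outside the cell, had a median of -0.18 over 4 genes. YCK1, a casein kinase gene, was positive on every array (0.20 ± 0.16), SSY5, the sensor's protease gene, negative on every array (-0.24 ± 0.16), as was STP1, the transcription factor gene the protease acts on (-0.15 ± 0.05), and PTR3 had -0.20 ± 0.42 (SD, n = 4 each). After centring, YCK1 was still positive on every array, and SSY5 and STP1 had mixed signs. YCK2 of the same list went the other way from YCK1, with -0.45, -0.54 and -0.52 on arrays 2 to 4 and a blank on array 1. Permease sorting had a median of -0.24 over 4 genes, with NPR2 at -0.38 ± 0.55, LST7 at -0.25 ± 0.36 and SHR3, a permease packaging chaperone gene, negative on every array at -0.22 ± 0.21, though not after centring. NPR1, the kinase gene that stabilises Gap1, had 1 value, -2.08 on array 3.

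TORC1 and its phosphatase branch had a median of -0.09 over 15 genes. Of these, 6 were negative on every array, beside 19.3% of all genes, and 0 positive, beside 6.87%. After centring 1 was negative on every array, 6.67% beside 8.72% of all genes. This was GTR2, which encodes a GTPase that signals amino acids to TORC1 (-0.39 ± 0.09 as deposited, named after its values were seen). KOG1 was then positive on every array, but close to 0, at 0.008 to 0.094. PPH3, a phosphatase gene of this branch, had -0.08, -0.74, -0.42 and -0.58 on arrays 1 to 4 (mean -0.45 ± 0.28). LST8, a TORC1 subunit gene, had -0.41 ± 0.53, with -1.17 on array 3. TOR1, the kinase gene, was negative on array 1 and positive on the others, with 0.40 ± 0.60 (SD, n = 4 each).

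Retrograde control links mitochondrial state to glutamate supply, and its targets and regulators had the highest median of the lists with at least 3 such genes, 0.19 over 7 genes, 0.32 above all genes. IDH2 and IDH1, the genes of both isocitrate dehydrogenase subunits, had 0.25 ± 0.32 and 0.22 ± 0.25, and CIT2, the peroxisomal citrate synthase gene and classical target, 0.21 ± 0.23 (SD, n = 4 each). Each was positive on arrays 1, 2 and 4 and negative on array 3, and the list medians were 0.49, 0.14, -0.13 and 0.19 on arrays 1 to 4. Also in the median were ACO1 (0.19 ± 0.32), BMH1 (0.10 ± 0.24), BMH2 (0.01 ± 0.75) and DLD3 (-0.02 ± 0.36). Outside it were the regulator genes RTG1, which was blank, and RTG2, RTG3 and MKS1. These had 1 value each, -0.43, -0.31 and -0.25 on array 2. As deposited 0 of the 7 were positive on every array, beside 6.87% of all genes. After centring 5 of the 7 were, beside 11.0% of all genes, though BMH1 was at 0.007 on array 2 and IDH2 at 0.05 on array 3. In the fit reported 0 passed. Without array 1 the list lay 0.17 above all genes, and turned by the dye labels it would lie -0.07 from them. General amino acid control had a median of -0.04 over 3 genes, GCN20 (-0.05 ± 0.14), GCN3 (-0.04 ± 0.43) and GCN4, the activator gene (-0.01 ± 0.23).

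**Figure D4:**
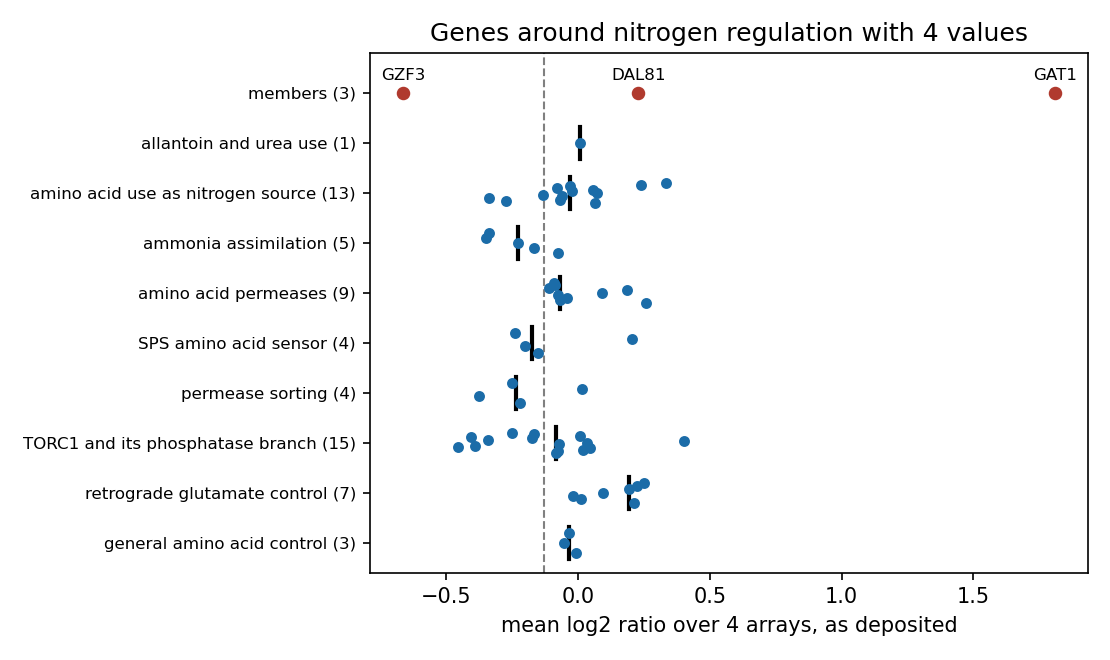
Mean log2 ratio over 4 arrays (horizontal axis) of each gene with 4 values, by list, with a bar at the list's median and a dashed line at the median of all genes, -0.13. The listed genes lie between -0.45 and 0.40, with GZF3 below and GAT1, which was chosen for its ratios, above that range.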

How the data were processed

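The values are log2 ratios, 1 per gene and array, as deposited by the authors. Base 2 follows from the data, since 100% of the back-transformed ratios on each array had 4 decimals (tolerance 2e-06). Not given in the sources used here are the background correction, the normalization, the blanking rule, the direction and the build. Array medians over the genes with 4 values were -0.10, -0.06, -0.22 and -0.07 on arrays 1 to 4. No sample column was left unused. RefSeq (assembly R64) supplied the gene names (5654 matched, 553 not). The number of arrays limits the precision.

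All genes were fitted with limma 3.58.1 in R 4.3.3, testing 2 culture means against 0, for both pairings of arrays of opposite orientation (1 with 2 and 3 with 4, or 1 with 4 and 2 with 3). The larger p was adjusted by Benjamini-Hochberg over 2925 genes. The script was tested on simulated data without a dye part, a simpler setting than these arrays, so that test checks the code alone. Genes and lists were chosen with earlier results of these data known. Named genes are the 10 genes, the 5 closest to GAT1, and per list the 3 with the largest absolute mean plus any of 1 sign with an absolute mean of at least 0.5. Neighbours, genes with fewer than 4 values, STP1, GTR2, KOG1, PRB1, TFS1 and the genes closest without array 3 were named after their values were seen. The same holds for ACO1, BMH1, BMH2 and DLD3. Alternatives were the pairing, arrays fitted separately, centring, scaling, genes on 3 arrays, turning by dye labels, and leaving out each array.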

Additional observations from a re-analysis of the deposited data

Results flagged for a closer look

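The 4 ratios were examined for a value that stands apart in 33 genes with 4 values, namely GAT1, GZF3, DAL81, the 5 genes closest to GAT1 and the list genes named by the fixed rule. The gap of the extreme array to its nearest neighbour, as a share of the range, was 0.875 for GAT1, 0.978 for YBL101W-A, 0.846 for YFL-TYA and 0.847 for YCL020W, each above Dixon's critical value at 95%. In each of the 4 the array was array 3, and the value there was the highest. Chance flags about 1 in 20 groups, but the number flagged cannot be held against that rate, because GAT1 was chosen for its ratios and the other 3 for their likeness to it.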

How the results depend on the processing

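Of 130 recomputed values, 110 stayed within the SD over arrays or, for counts, within 1.5 times. Among the 89 that carry a sign, 14 changed it, 7 with signs turned by the dye labels and 7 with an array left out. Turned, GAT1 was -0.58, GZF3 0.20 and DAL81 -1.36. Turned, the list median less that of all genes was 0.18 for permease sorting (-0.11 as deposited), -0.0745 for retrograde control (0.32), -0.16 for general amino acid control (0.09) and -0.00908 for TORC1 (0.04), and amino acid use kept its sign at 0.31 (0.10). With an array left out, DAL81 was -0.09 without array 1 and -0.35 without array 3. The list difference was -0.04 without array 2 for amino acid use, 0.02 without array 1 for ammonia assimilation (-0.10 as deposited), -0.04 without array 1 or array 2 for TORC1, and -0.0756 to 0.0427 over arrays left out for the SPS sensor (-0.05), positive without array 1. For amino acid permeases it was 0.20 without array 1 (0.06). The count of genes past the threshold, 1, was 148 with arrays 1 and 4 joined, 10 with arrays centred, 48 with arrays centred and scaled, 17 with arrays fitted separately, 0 with genes on at least 3 arrays, 0 with values turned (limma in each), and 1 to 61 with an array left out, 61 without array 1 and 56 without array 3. The count of the 10 genes past it, 0, was 1 with arrays 1 and 4 joined, with arrays centred and scaled, and without array 1 or array 3, and 0 to 1 over arrays left out. That 1 was GAT1 each time, chosen on these ratios, so nothing is read from it. The count of genes at least 2-fold on every array, 14, was 3 with values turned, all negative, and 15 to 25 with an array left out, 25 without array 2. The cause was not tested. Each ratio already sets treated against untreated cells, and the pairing of arrays into cultures is not stated.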
